A study of Mus musculus with 8 samples.

Results

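The transcript clusters described here are those of a mouse exon array whose annotation lists more than 1 gene symbol. A transcript cluster is a set of probesets summarised into 1 value. Membership was read from the gene symbol entry of the array's annotation, so that no measured value entered the rule. The rule was set with earlier results of these data known. Of 23332 clusters in the value table, 1019 listed several symbols, 14996 listed 1 symbol and 7317 had no symbol. The several-symbol clusters held 2541 symbol entries for 1971 distinct symbols, and 1736 of those symbols had no single-symbol cluster of their own. For the genes behind these 1736 symbols, the clusters below are the only named readout on the array.

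The arrays compared B16F0 cells, a mouse melanoma line, with exosomes that the same line released. The cell group was 4 samples of total RNA from parental B16F0 cells cultured in serum-free medium for 24 h, and the exosome group was 4 samples of exosomal RNA from serum-free medium that such cells had conditioned for 24 h. No genotype, drug or other treatment separated the groups, and the sources used here do not describe the isolation of the exosomes. Nothing in the labels ties the replicates to separate cultures, and the p-values speak of the spread among these arrays, and 4 arrays a group limit the precision.

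Exosomes are small vesicles that form inside endosomes and leave the cell when these fuse with the plasma membrane, carrying protein and RNA of the parent cell. An array probe reads every transcript that matches its sequence, so near-identical gene copies, processed pseudogenes and overlapping or fused neighbours can share a cluster. Mouse genes that sit in large tandem families, among them histones, olfactory and vomeronasal receptors, zinc finger proteins and the major histocompatibility complex (MHC), therefore often share one. Which of the listed genes gave a cluster's signal cannot be told from the values, and each cluster is named below by its symbols in the order of the annotation, joined by a slash.

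The 4 clusters that list the same 13 histone H4 genes, with a different gene first in each, had some of the clearest contrasts. The 250 bases upstream of their first-listed genes are given because these near-identical proteins are made from separate genes with separate promoters, together with those of the first-listed genes of an H2B and an H2A cluster. Sequences are those of RefSeq for build GRCm38.p6, written 5′ to 3′ on the gene's strand, and end at the base before the annotated transcript start. Capitals mark matches on either strand to 3 motifs, none of which overlap here. The core promoter element named TATA box was searched as the letters TATAAA. The binding site of the factor NF-Y was searched as CCAAT. The octamer, bound by Oct factors, was searched as ATTTGCAT.
H4c4, chr13:23581318-23581567, plus strand: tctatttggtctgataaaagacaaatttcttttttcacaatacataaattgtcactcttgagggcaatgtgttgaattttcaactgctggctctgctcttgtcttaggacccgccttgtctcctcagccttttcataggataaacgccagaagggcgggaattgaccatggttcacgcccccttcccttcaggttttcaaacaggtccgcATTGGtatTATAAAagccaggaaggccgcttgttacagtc
H4c8, chr13:23530794-23531043, plus strand: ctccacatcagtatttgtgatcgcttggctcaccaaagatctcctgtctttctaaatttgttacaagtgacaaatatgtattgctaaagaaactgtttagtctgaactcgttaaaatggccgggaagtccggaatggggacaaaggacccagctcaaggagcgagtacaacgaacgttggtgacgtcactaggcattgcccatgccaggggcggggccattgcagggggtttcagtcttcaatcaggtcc
H4c9, chr13:22041363-22041612, minus strand: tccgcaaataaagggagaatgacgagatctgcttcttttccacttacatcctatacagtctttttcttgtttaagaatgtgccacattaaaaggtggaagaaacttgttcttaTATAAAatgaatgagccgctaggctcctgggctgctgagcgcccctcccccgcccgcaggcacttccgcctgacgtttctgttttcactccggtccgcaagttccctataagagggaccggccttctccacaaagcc
H4f16, chr6:136804432-136804681, minus strand: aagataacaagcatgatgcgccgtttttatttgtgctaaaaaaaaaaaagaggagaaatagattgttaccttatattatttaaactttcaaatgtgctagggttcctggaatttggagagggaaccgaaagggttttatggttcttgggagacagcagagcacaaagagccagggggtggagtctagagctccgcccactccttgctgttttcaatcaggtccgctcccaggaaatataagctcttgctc
H2bc3, chr13:23746484-23746733, plus strand: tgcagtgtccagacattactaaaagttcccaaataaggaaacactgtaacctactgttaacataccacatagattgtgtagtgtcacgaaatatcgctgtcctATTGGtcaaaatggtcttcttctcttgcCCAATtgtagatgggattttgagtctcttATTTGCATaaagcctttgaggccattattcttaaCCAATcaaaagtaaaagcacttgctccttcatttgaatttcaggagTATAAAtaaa
H2ac4, chr13:23750838-23751087, plus strand: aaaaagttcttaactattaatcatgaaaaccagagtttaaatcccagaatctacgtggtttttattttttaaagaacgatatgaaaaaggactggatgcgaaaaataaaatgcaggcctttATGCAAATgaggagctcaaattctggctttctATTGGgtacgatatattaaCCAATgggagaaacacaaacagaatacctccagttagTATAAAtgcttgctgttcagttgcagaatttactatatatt
H4c4 held 1 TATA box and 1 NF-Y site, H4c9 held 1 TATA box, and H4c8 and H4f16 held none of the 3 motifs in this window. H2bc3 held 1 TATA box, 3 NF-Y sites and 1 octamer, and H2ac4 held 1, 2 and 1. Of the 48 replication-dependent histone symbols listed in the clusters, 44 had a promoter in the RefSeq table, of which 20 held the TATA box letters, 33 those of the NF-Y site and 6 the octamer. Among all 32851 promoters of that table the shares were 12.4%, 33.8% and 1.60%. A match describes letters and not a bound site.

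As a check of the labels, 6 of 6 measured pigment cell genes (Tyr, Tyrp1, Dct, Pmel, Mitf and Sox10, all single-symbol clusters) lay above background in both groups. None of 4 leukocyte, 2 endothelial or 2 measured epithelial markers did, and of 3 fibroblast markers Col1a1 did in both groups. Background here is the 95th percentile of 843 single-symbol clusters of olfactory, vomeronasal and taste receptors on the same array, genes of other tissues that stand in for the control probesets. This threshold was 5.74 ± 0.03 (SD, n = 4) log2 units in cells and 6.49 ± 0.06 in exosomes, and a cluster is called above background in a group when it exceeds it on all 4 arrays. Over all clusters, the median exosome minus cell difference was -0.20 log2 units on the deposited scale. It was 0.05 after quantile normalization, 0.03 after cyclic loess normalization, and -0.79 with arrays centred on the receptor clusters. The arrays were loaded with equal cDNA mass, so each level is relative to the rest of its own array, and in such bulk samples fewer vesicles or cells and less RNA per vesicle or cell cannot be told apart.

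Most several-symbol clusters lay under background. In cells 424 of 1019 (41.6%) lay above background, and in exosomes 231 (22.7%) did. Of all clusters 50.9% did in cells and 30.5% in exosomes, so the lower share in exosomes was not particular to the members. By array, 451 ± 6.06 (SD, n = 4) members exceeded the threshold in cells and 272 ± 13.8 in exosomes, an exact two-sided permutation p of 0.0286, the smallest that 4 against 4 can give. With limma fitted to all 23332 clusters, 393 members fell in exosomes and 183 rose at an adjusted p below 0.05 (Benjamini-Hochberg over all clusters). The background over all clusters was 42.9% lower and 16.4% higher, and the members' shares were 38.6% and 18.0%. With a change of at least 2-fold, 286 members fell and 52 rose, against 31.1% and 5.43% of all clusters. The groups did not overlap in 386 members with exosomes lower and 143 with exosomes higher, against 42.0% and 14.4% of all clusters. The counts called in each direction moved with the scaling. Rises outnumbered falls after quantile (265 against 253) and cyclic loess normalization (263 against 258), and with arrays centred on the receptor clusters 42 rose and 677 fell. In all, 42 rises and 241 falls were called on the deposited scale and under all 3 other scalings. The median difference of the members was -0.078, against -0.38 for single-symbol and -0.02 for unnamed clusters, and its sign turned under quantile (0.092) and cyclic loess (0.064) normalization.

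At like levels in cells, several-symbol and single-symbol clusters had like differences. Of members with a cell mean from 8 to 10, 168 in number, the median difference was -1.70 and 148 fell, and the 4078 single-symbol clusters in this range had a median of -1.65. From 6 to 8 the medians were -0.89 over 181 members and -0.85 over 3338 single-symbol clusters. From 10 to 12 they were -1.65 over 62 and -1.68 over 1430. Below 4 the medians were 0.26 over 309 members and 0.23 over 1669. These are descriptions, since the cell mean enters both the range and the difference.

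**Figure D1:**
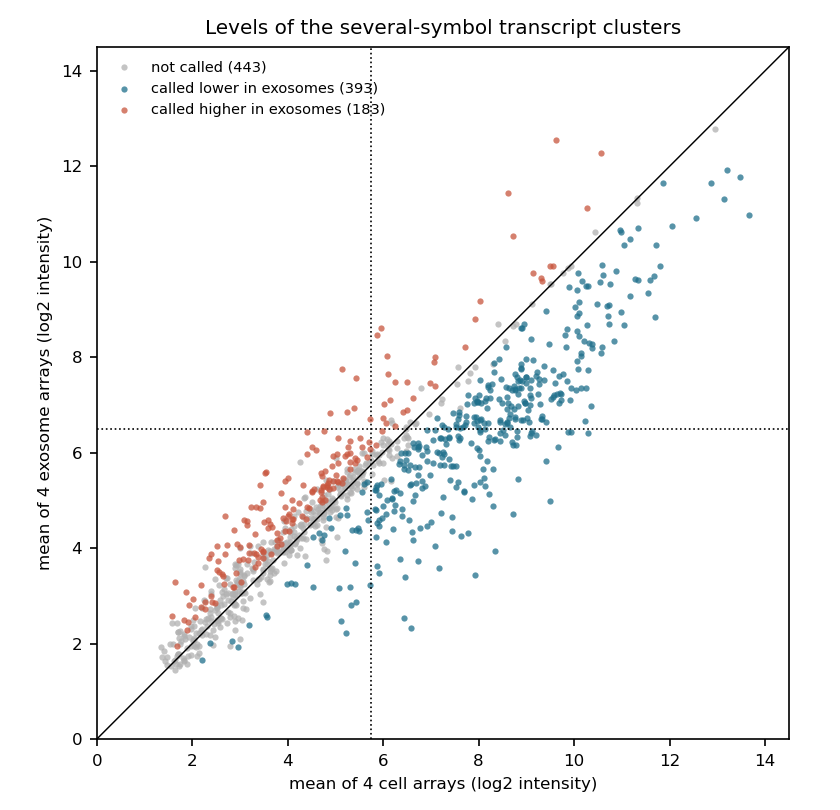
Mean level of each of the 1019 several-symbol clusters in 4 cell arrays (x, log2 intensity) and 4 exosome arrays (y, log2 intensity), coloured by limma call at an adjusted p below 0.05. The line marks equal levels and the dotted lines the mean background thresholds, 5.74 in cells and 6.49 in exosomes; 393 clusters were called lower in exosomes, 183 higher and 443 neither.

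The symbols listed together were of different kinds. In 776 clusters there were 2 symbols, in 140 there were 3, and the maximum was 13. A shared name stem, meaning the same first 3 letters, joined all established names in 526 clusters. In 354 clusters the established names had different stems. Another 118 held 1 established name beside provisional ones, 15 held provisional names alone and 6 held a small RNA symbol. Of the 1971 symbols, 1903 matched RefSeq by gene identifier, all under the same symbol, and in 777 clusters every listed gene was protein coding. A pseudogene stood beside a coding gene in 109 clusters, another RNA or gene segment did in 40, 10 listed no coding gene and 83 held an unmatched symbol.

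On the deposited scale, falls made up a majority of the clusters with different stems, while rises and falls were about equal in number among those with a shared stem; neither held under every scaling. Of the 354 with different stems, 214 (60.5%) fell and 42 rose, with a median difference of -0.78 and a median cell level of 7.23. Of the 526 with a shared stem, 115 (21.9%) fell and 112 rose, with a median difference of 0.09 and a median cell level of 4.09. Without those that list an olfactory, vomeronasal or taste receptor, 384 remained. Of these, 115 (29.9%) fell and 67 (17.4%) rose, with a median difference of -0.004, so the near-equal numbers came with the receptor clusters. Among the 354 with different stems 133 fell and 85 rose after quantile normalization and 135 and 95 after cyclic loess, no majority, and the median shrank to -0.04 and -0.03. Among all 526 with a shared stem 276 fell and 30 rose with arrays centred on the receptor clusters, and the median turned to -0.50. Clusters with 1 established name had 58 falls and 21 rises and a median of -0.36, which turned to 0.14 and 0.10 under quantile and cyclic loess normalization. Those with provisional names alone had 8 rises and 1 fall, and their median of 0.46 turned to -0.13 with centring. No test of these groups against each other was made, and their levels differ as given.

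**Figure D2:**
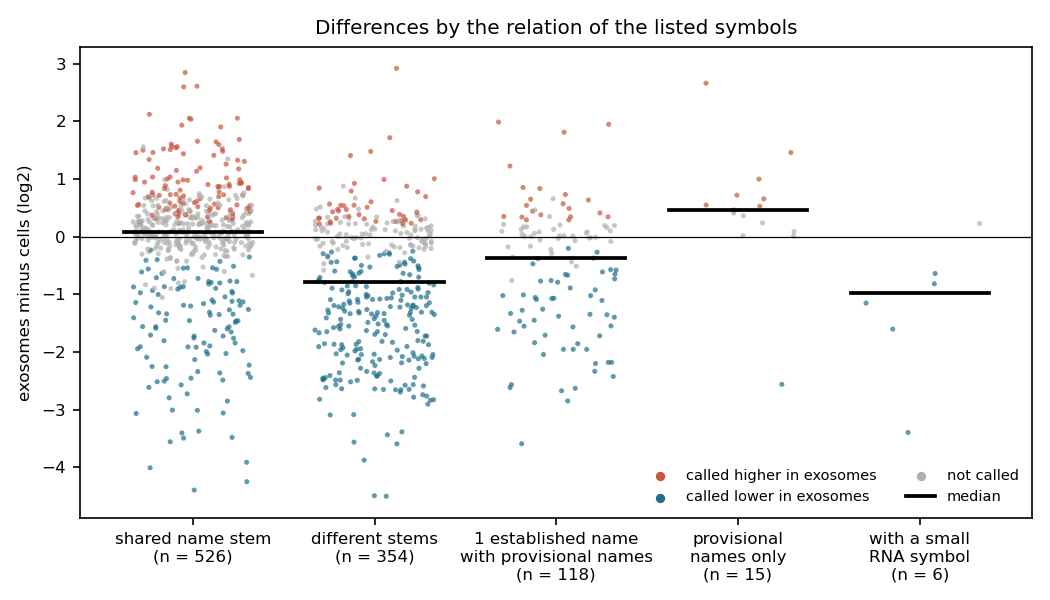
Exosome minus cell difference (log2) of each several-symbol cluster, by the relation of its symbols, with points coloured by limma call and bars at the medians. The median was 0.09 for 526 clusters with a shared name stem and -0.78 for 354 with different stems; horizontal spread within a column carries no value.

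Genome position of the listed genes also varied. In RefSeq, 372 clusters listed genes that were adjacent, 84 genes that overlapped, 302 genes on 1 chromosome with others between them, and 202 genes on different chromosomes, while 59 could not be placed. Array identifiers run along the genome, and in 180 of the 202 clusters with genes on different chromosomes the 6 nearest identifiers lay mostly on the chromosome of the first-listed gene, in 16 on that of a later one, with 6 undetermined. Of first-listed symbols, 29 of 1019 (2.85%) also had a single-symbol cluster, and of later-listed entries 237 of 1522 (15.6%) did. Overlapping genes had 49 falls of 84 (58.3%), 11 rises, a median difference of -0.58 and a median cell level of 6.91. Different chromosomes had 112 falls of 202 (55.4%), 31 rises, -0.57 and 7.07. Adjacent genes had 132 falls of 372 (35.5%), 64 rises, -0.03 and 4.98. Genes apart on 1 chromosome had 71 falls of 302 (23.5%), 68 rises, 0.08 and 4.35. Of all clusters 42.9% fell and 16.4% rose. Of single-symbol clusters, 71.0% fell from 6 to 8 in cells and 10.4% from 4 to 6. The position groups thus differ in level as well.

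The largest rise was that of Gnpat/Trim67, genes on chromosome 8 for a peroxisomal enzyme of ether lipid synthesis and a tripartite motif protein. It read 9.60, 9.64, 9.68 and 9.59 in cells and 12.48, 12.51, 12.59 and 12.60 in exosomes. The groups were far apart, and the difference was 2.92 ± 0.06 (SE), or 7.57-fold (limma adjusted p = 2.65e-08). Next came Zfp369/Zfp110, 2 zinc finger proteins on chromosomes 13 and 7 that bind a neurotrophin receptor, at 8.57 to 8.68 in cells and 11.39 to 11.52 in exosomes. That difference was 2.85 ± 0.07, or 7.21-fold (limma adjusted p = 2.65e-08).

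Cflar/Gm9845 and Ei24/Nop56 also rose from levels well above background. Cflar, which encodes an inhibitor of caspase-8 at death receptors, and the provisional gene with it read 8.82, 8.68, 8.69 and 8.71 in cells and 10.39, 10.48, 10.67 and 10.60 in exosomes, a difference of 1.81 ± 0.08 (limma adjusted p = 1.98e-07). Ei24 encodes an endoplasmic reticulum protein of autophagy and Nop56 a core protein of box C/D small nucleolar ribonucleoproteins. Their cluster read 10.52, 10.61, 10.61 and 10.52 in cells and 12.29, 12.19, 12.34 and 12.31 in exosomes, a difference of 1.72 ± 0.07 (limma adjusted p = 9.19e-08). In all 4 of these clusters every exosome array exceeded every cell array.

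The other large rises started near or below background in cells. The 5-gene vomeronasal receptor cluster Vmn2r42/Vmn2r30/Vmn2r48/Vmn2r32/Vmn2r49 read 4.74 to 5.55 in cells, under the threshold on all arrays, and 7.65 to 8.02 in exosomes. Against the dimmest level that counts as above background it was at least 4.06-fold higher (means 5.15 and 7.76, limma adjusted p = 1.59e-06). On the same basis the apolipoprotein L genes Apol7b/Apol7e were at least 3.53-fold higher (means 5.44 and 7.56, limma adjusted p = 1.97e-06) and the olfactory receptors Olfr111/Olfr110 at least 2.13-fold higher (means 4.89 and 6.83, limma adjusted p = 4.94e-05). The provisional pair 4921509C19Rik/Gm14147 was above background in 3 of 4 cell arrays and rose by 2.66 ± 0.26, the deubiquitinase genes Usp17ld/Usp17lc in 2 of 4 and rose by 2.60 ± 0.28, and the 4-gene cluster 5031410I06Rik/Speer4a/Gm7347/Gm5862 in 3 of 4 and rose by 1.95 ± 0.28. Their limma adjusted p-values were 2.22e-05, 4.42e-05 and 0.000299.

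The largest fall was that of Cp/Rex2, where Cp encodes ceruloplasmin, the copper-binding ferroxidase. It read 9.58, 9.40, 9.52 and 9.45 in cells and 5.08, 4.85, 5.21 and 4.81 in exosomes, under the threshold on every exosome array. The cluster was at least 7.98-fold lower in exosomes (limma adjusted p = 2.65e-08). Cd59a/Cd59b, 2 inhibitors of the complement membrane attack complex, read 8.70 to 8.76 in cells and 4.51 to 5.03 in exosomes and was at least 4.72-fold lower (limma adjusted p = 3.36e-08). Sh3bgrl/Gm6377, whose first gene encodes a small thioredoxin-fold protein, was at least 7.54-fold lower, with means of 9.41 and 5.82 (limma adjusted p = 2.99e-07).

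Acsl3/Utp14b, a long-chain acyl-CoA synthetase gene and a ribosomal RNA processing gene that overlap on chromosome 1, fell from 10.25 to 10.39 in cells to 6.17 to 6.59 in exosomes. It was above background on 2 of 4 exosome arrays, and its difference was -3.87 ± 0.11 (limma adjusted p = 3.36e-08). Znf41-ps/Rex2 was likewise above background on 2 exosome arrays and differed by -3.56 ± 0.23 (limma adjusted p = 1.35e-06). The zinc finger genes Rsl1/Zfp455/Zfp429/Zfp456 had cell values of 7.76 to 8.07 and exosome values of 2.91, 5.18, 2.74 and 2.91, with replicate 2 far from the others. That cluster was at least 2.70-fold lower (limma adjusted p = 6.40e-05), and Zfp932/A830023I12Rik/Zfp605 was at least 1.06-fold lower from a cell mean of only 6.57 (limma adjusted p = 4.10e-06).

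**Figure D3:**
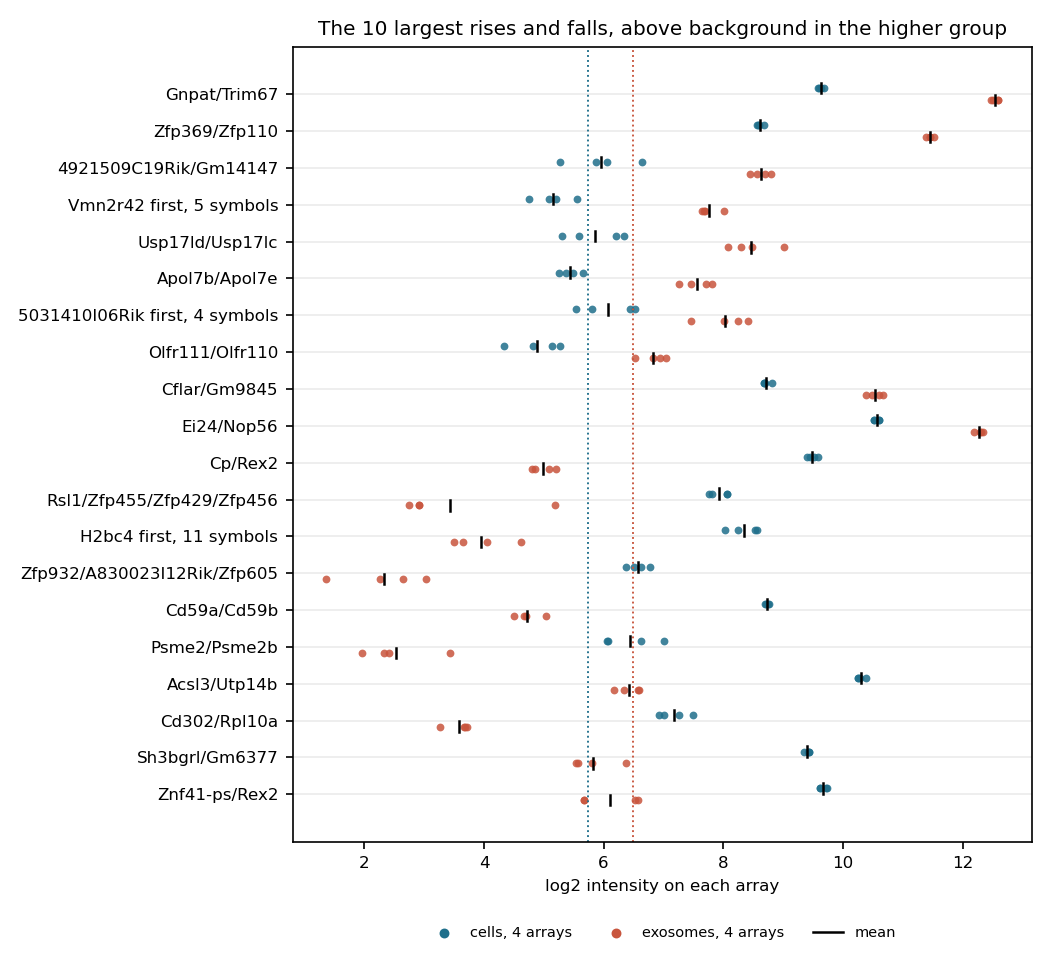
Log2 intensity on each of the 8 arrays for the 10 several-symbol clusters with the largest rise and the 10 with the largest fall among those called, with groups that do not overlap and above background on all 4 arrays of the higher group, with means as bars and the mean background thresholds as dotted lines (5.74 in cells, 6.49 in exosomes). Gnpat/Trim67 is highest among the rises in exosomes at 12.48 to 12.60, and 8 of the 10 falls lie under the threshold on every exosome array.

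The brightest clusters in cells held genes of abundant transcripts and mostly fell by about 1 to 3 log2 units. Tecr/Fthl17a, where Tecr encodes the last enzyme of very-long-chain fatty acid elongation, read 13.68, 13.68, 13.66 and 13.67 in cells and 10.79 to 11.12 in exosomes, a difference of -2.69 ± 0.08 (limma adjusted p = 4.26e-08). The glutathione S-transferases Gstp2/Gstp1 differed by -1.84 ± 0.12, the cytochrome c oxidase subunit Cox6c/EG621837 by -1.27 ± 0.09 and the alpha tubulins Tuba1a/Tuba1c/Gm5620 by -1.22 ± 0.08, with limma adjusted p-values of 1.26e-06, 2.21e-06 and 1.21e-06. In each of these the groups did not overlap.

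Ube2v1/Tmem189, a ubiquitin-conjugating enzyme variant and a neighbouring gene known for read-through transcripts with it, read 13.05, 12.89, 13.03 and 12.85 in cells and 12.64, 12.85, 12.85 and 12.83 in exosomes. The groups overlapped, and the difference of -0.16 ± 0.08 did not pass (limma adjusted p = 0.134); its sign turned under quantile (0.28) and cyclic loess (0.38) normalization. The ribosomal protein gene Rps14 with EG545121 differed by -0.20 ± 0.08 (limma adjusted p = 0.0490), a sign that turned under the same scalings (0.46 and 0.65).

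Among 20 clusters with a histone symbol, 13 fell in exosomes and none rose on the deposited scale, with a median of -1.30. Their median cell level was 6.78, and of single-symbol clusters from 6 to 8 in cells 71.0% fell, against 65.0% here. Under quantile and under cyclic loess normalization 3 rose, and the median stayed below 0 under all 3 other scalings (-0.66, -0.62 and -1.90). Histones H2A, H2B, H3 and H4 form the nucleosome core, their replication-dependent genes are copied many times on mouse chromosome 13, and their transcripts end in a stem-loop in place of a poly(A) tail. The clusters did not move together in size, as the plot of histone clusters by array shows.

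The H4 cluster with H4c4 listed first was the second brightest member in cells. It read 13.57, 13.38, 13.49 and 13.46 in cells and 11.57, 11.81, 11.93 and 11.78 in exosomes, a difference of -1.70 ± 0.09 (limma adjusted p = 4.87e-07). The cluster with H4c8 first, which lists the same 13 genes, read 9.60, 9.40, 9.61 and 9.41 in cells and 9.53, 9.47, 9.57 and 9.54 in exosomes. Its groups overlapped, and the difference was 0.02 ± 0.08 (limma adjusted p = 0.829).

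The H4f16-first cluster read 8.96, 8.40, 8.47 and 7.97 in cells and 6.03, 6.82, 6.69 and 7.22 in exosomes, a difference of -1.76 ± 0.28 (limma adjusted p = 0.000612). The H4c9-first cluster was under background in both groups, with means of 5.05 and 4.64. Tested on the per-array differences between clusters, the difference of the H4c4-first cluster minus that of the H4c8-first cluster was -1.73 ± 0.17 (limma adjusted p = 0.000123 over 98 pairs). The H4c8-first cluster minus the H4f16-first cluster gave 1.78 ± 0.29 (limma adjusted p = 0.00223), and the H4c4-first minus the H4f16-first cluster gave 0.06 ± 0.28 (limma adjusted p = 0.892). The single-symbol cluster of H4c14, a gene that all 4 also list, differed by -1.82 ± 0.27 (limma adjusted p = 0.000349).

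The histone cluster with the largest fall was one of H2B genes. This 11-gene cluster with H2bc4 first read 8.54, 8.24, 8.57 and 8.02 in cells and 3.49, 3.65, 4.61 and 4.05 in exosomes, at least 3.61-fold lower (limma adjusted p = 6.46e-07). The 6-gene cluster with H2bc3 first differed by -2.61 ± 0.31 (limma adjusted p = 8.15e-05), and the 7-gene cluster with H2bc6 first, which also lists the linker histone H1f4, was at least 1.61-fold lower, with means of 7.18 and 5.99 (limma adjusted p = 2.70e-06). The 9-gene H2A cluster with H2ac4 first fell by 1.27 on the log2 scale (SE 0.24, limma adjusted p = 0.00185), with cell values of 9.65 to 10.18 and exosome values of 7.99 to 9.09.

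The 10-gene H2A and H3 cluster with H2ac18 first, on chromosomes 3 and 13, read 8.61 to 9.42 in cells and 8.98 to 9.28 in exosomes and differed by 0.01 ± 0.17 (limma adjusted p = 0.980). The replacement histones H3f3b/H3f3a, expressed outside DNA replication, fell from a mean of 11.69 ± 0.06 (SD, n = 4) to 8.84 ± 0.35, a difference of -2.85 ± 0.16 (limma adjusted p = 6.77e-07). The single-symbol cluster of H3f3a differed by -0.20 ± 0.14 (limma adjusted p = 0.243), and the difference between the 2 clusters was itself -2.65 ± 0.19 (limma adjusted p = 4.95e-06 over 266 pairs). Zfyve1/H2az1, with the H2A.Z variant as its second gene, differed by -2.12 ± 0.07 (limma adjusted p = 4.53e-08).

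Zinc finger protein genes, most of them transcription factors with runs of C2H2 fingers, were in 64 clusters, of which 53 (82.8%) fell and 4 rose, with a median of -1.30 and a median cell level of 6.73. Of all clusters 42.9% fell, and of single-symbol clusters from 6 to 8 in cells 71.0% did, with a median of -0.85. Between 41 and 60 of the 64 fell under the other scalings, and their median stayed below 0. Rises numbered 11 after quantile normalization, 10 after cyclic loess and 1 with centring. The 4 called higher on the deposited scale were Zfp369/Zfp110 (2.85), Zfp697/Ywhah (0.30) and, under background in both groups and so without a fold, 4933434E20Rik/Zfp808/Selenok (means of 2.39 and 3.87) and Gtsf1l/Zfp850 (4.73 and 5.52).

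Clusters with genes of translation and of energy metabolism were mostly lower, as were clusters at their levels at large: of single-symbol clusters from 8 to 10 in cells, 86.9% fell. All 8 clusters with an initiation or elongation factor or a protein that binds one fell, with a median of -1.89 at a median cell level of 8.17. After quantile and cyclic loess normalization 6 of 8 fell, with medians of -0.90 and -0.64. Eif4a2/Snora81, an RNA helicase of cap-dependent initiation and the small nucleolar RNA in its intron, was at least 2.22-fold lower, with means of 7.64 and 4.25 (limma adjusted p = 6.55e-08). Ctdspl2/Eif3j1 differed by -2.12 ± 0.23 (limma adjusted p = 4.16e-05), Tut1/Eef1g was at least 2.89-fold lower (limma adjusted p = 2.89e-07), and Eif2ak2/Gm6548/Eef1a1, which lists the RNA-activated kinase PKR and an elongation factor, differed by -2.07 ± 0.12 (limma adjusted p = 7.26e-07). The last of these was above background on 1 of 4 exosome arrays.

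Of 12 clusters with a respiratory chain or mitochondrial ribosome gene, 10 (83.3%) fell, with a median of -1.50 at a median cell level of 8.72. After quantile and cyclic loess normalization 6 fell, with medians of -0.38 and -0.28. Mrps22/Capza1 was at least 2.91-fold lower and Mrps6/Slc5a3 differed by -2.17 ± 0.10 (limma adjusted p = 9.54e-07 and 2.54e-07). Ndufa10/Olfr1415/Olfr1416, a complex I subunit listed with olfactory receptors, differed by -1.90 ± 0.09 (limma adjusted p = 1.93e-07). The 1 that rose, Cox7a2l/Gm6969, changed by 0.49 ± 0.11 (limma adjusted p = 0.00367), and its sign turned to -0.10 with arrays centred on the receptor clusters. Its nearest identifiers lay mostly on chromosome 12, that of the provisional gene Gm6969, while Cox7a2l is on chromosome 17.

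Ribosomal protein genes, which have many processed pseudogenes, were in 33 clusters, of which 21 (63.6%) fell and 1 rose. Their median cell level was 6.99, and of single-symbol clusters from 6 to 8 in cells 71.0% fell. The median difference of the 33, -0.41, depended on the scaling. It was -0.03 after quantile normalization and turned to 0.01 after cyclic loess, with 10 and 11 rises. Cd302/Rpl10a, a C-type lectin receptor gene with a ribosomal one from another chromosome, was at least 1.60-fold lower (means 7.17 and 3.58, limma adjusted p = 1.42e-07). Herpud2/Rpl41 and Acadl/Rpl12/EG633570 differed by -2.57 ± 0.11 and -2.49 ± 0.09 (limma adjusted p = 1.35e-07 and 6.08e-08). The 1 rise on the deposited scale was that of Rps19/Rps19-ps2, by 0.47 ± 0.17 (limma adjusted p = 0.0422), with overlapping groups and a sign that turned to -0.12 with centring.

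Of 13 clusters with an hnRNP or splicing factor gene, 8 (61.5%) fell and 2 (15.4%) rose, against 42.9% and 16.4% of all clusters, with a median of -1.10 at a median cell level of 6.92. Of single-symbol clusters from 6 to 8 in cells 71.0% fell. After quantile normalization 5 of the 13 fell and 2 rose with a median of -0.33, and after cyclic loess 6 and 3 with -0.23. Hnrnpul2/Bscl2 differed by -2.14 ± 0.07 (limma adjusted p = 5.07e-08) and Rbm12b2/Rbm12b1 was at least 1.34-fold lower (limma adjusted p = 1.77e-07). The 2 called higher on the deposited scale were Tmem45b/Snrpb2, under background with means of 5.17 and 5.46, and Snrpa/Gm5145, by 0.41 ± 0.15 (limma adjusted p = 0.0463), the latter turning to -0.18 with centring. Among 12 clusters with a proteasome or ubiquitin gene, 7 (58.3%) fell and 3 (25.0%) rose, at a median cell level of 7.29. Of all clusters 42.9% fell and 16.4% rose, and of single-symbol clusters from 6 to 8 in cells 71.0% and 7.4% did. The balance of the 12 turned under quantile and cyclic loess normalization, where 3 fell and 6 rose.

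MHC clusters moved in both directions. MHC class I proteins present peptides to T cells, and the classical genes H2-K1 and H2-D1 lie with many relatives on chromosome 17. H2-K1/H2-K2/H2-D1 read 10.13, 10.24, 10.14 and 10.35 in cells and 6.71, 6.53, 6.71 and 6.70 in exosomes, a difference of -3.55 ± 0.08, or 11.7-fold (limma adjusted p = 2.65e-08). The 7-gene cluster with H2-D1 first differed by -3.37 ± 0.12 (limma adjusted p = 7.15e-08), and the 5-gene cluster with H2-gs10 first was at least 1.08-fold lower (limma adjusted p = 0.000232). In these 3 clusters no exosome array reached a cell array.

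The cluster of the non-classical genes H2-T22/H2-T10/H2-T9/H2-T17 went the other way. It read 8.25, 7.67, 7.97 and 8.22 in cells and 9.08, 9.25, 9.09 and 9.31 in exosomes, a difference of 1.15 ± 0.14 (limma adjusted p = 9.34e-05). Gm7030/Gm8909/H2-Q2 was called higher from one level under background to another (4.78 and 5.61), and the other 7 of 12 MHC clusters did not pass. Of the 12, 25.0% fell and 16.7% rose, against 42.9% and 16.4% of all clusters. The median over the 12 was -0.11 and turned to 0.27 and 0.19 under quantile and cyclic loess normalization.

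Families of other tissues lay mostly under background, and most of their rises were lost when arrays were centred on the receptor clusters. Of 158 clusters with an olfactory, vomeronasal or taste receptor, 50 (31.6%) rose and 5 (3.16%) fell on the deposited scale. Their median difference was 0.38 at a median cell level of 3.15. Of all clusters 16.4% rose and 42.9% fell, and of single-symbol clusters under 4 in cells 29.6% and 1.74% did. In cells 7 of the 158 (4.43%) were above background, a threshold set by single-symbol receptors of the same families. After quantile normalization 48 rose and 2 fell, and after cyclic loess 44 and 2, with medians of 0.37 and 0.33. With arrays centred on the single-symbol receptors 19 rose, 38 fell and the median turned to -0.22. Centring takes out the shift of those receptors themselves. Those single-symbol receptors had a median of 0.48, with 331 rises and 7 falls among 843. The 5 that fell on the deposited scale were Ndufa10/Olfr1415/Olfr1416 (-1.90), Sall2/Olfr1513/Olfr1512 (-1.15), the Flt4-first cluster (-0.57), 4933421I07Rik/Vmn2r-ps54/Gprc2a-rs4 (-0.50) and Stard3/Olfr869 (-0.26). In all 5 the first-listed symbol is not that of a receptor on the list.

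Of 24 cytochrome P450 clusters 7 rose and 2 fell, of 16 natural killer cell lectin clusters 7 rose and none fell, and of 21 keratin and cornified envelope clusters 5 rose and none fell. Of single-symbol clusters under 4 in cells 29.6% rose, and 24.2% did from 4 to 6. After quantile normalization 5, 6 and 7 clusters of these families rose, in the same order, and 4, 0 and 0 fell. After cyclic loess 4, 6 and 5 rose and 4, 0 and 0 fell. With centring 0, 1 and 0 rose and 13, 4 and 8 fell. None of the lectin clusters and 3 of the cytochrome P450 clusters were above background in cells, and the largest differences there were those of Klra9/Klra3/Klra10/Klra8, under background with means of 2.87 and 4.37, and of Cyp4f16/Cyp4f40/Cyp4f17 at -1.91 ± 0.16 (limma adjusted p = 0.00739 and 6.92e-06). Serpins (3 rises of 8) and UDP-glucuronosyltransferases (2 of 6) had no falls on the deposited scale or after quantile or cyclic loess normalization. With centring 4 and 4 fell. Of 23 interferon and interferon-induced clusters, 5 (21.7%) fell and 4 (17.4%) rose, against 42.9% and 16.4% of all clusters. The guanosine triphosphatases Igtp/Irgm2 were at least 1.10-fold lower and the antiviral synthetases Oas1a/Oas1g at least 1.18-fold lower (limma adjusted p = 2.44e-05 and 0.000275).

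All 3 clusters with a small nucleolar or Cajal body RNA fell, at a median cell level of 7.68. Of single-symbol clusters from 6 to 8 in cells 71.0% fell. Under quantile and under cyclic loess normalization 1 of the 3 fell. The host gene of Atg16l1/Scarna6 encodes an autophagy protein, and the cluster differed by -0.81 ± 0.08 (limma adjusted p = 3.10e-05), a sign that turned to 0.53 and 0.59 under quantile and cyclic loess normalization. Cop1/Scarna3a/Gm6206, a ubiquitin ligase gene and a Cajal body RNA on chromosome 1 with a provisional gene on chromosome X, differed by -1.15 ± 0.19 (limma adjusted p = 0.000695) and turned to 0.062 under cyclic loess. Scfd1/Hmgb1, which lists a high mobility group chromatin protein second, was at least 3.31-fold lower (means 8.22 and 5.13, limma adjusted p = 1.42e-07). Slc25a51/9130208E07Rik, with the mitochondrial NAD carrier gene, rose by 0.86 ± 0.10 from a cell mean of 10.27 (limma adjusted p = 9.83e-05).

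Clusters that list the same set of symbols were set one against another, though they can lie at different places in the genome. There were 80 such sets in 168 clusters, forming 98 pairs, and in 15 pairs both clusters lay above background in at least 1 group. In 11 of the 15 both clusters fell, in 1 the calls were opposite, and in 9 the difference between the clusters passed (limma on per-array differences, adjusted over the 98 pairs). Several of the 15 entered through their cell level alone, so the count of falls is no support for a fall. In 6 pairs both clusters lay above background in both groups, of which 4 had both lower and 3 passed the test of the difference. The pair with opposite calls was Zfp369/Zfp110, given above, and Zfp110/Zfp369, which lists the same genes in reverse. The latter read 8.99, 8.85, 8.97 and 9.05 in cells and 6.88, 6.85, 7.23 and 7.24 in exosomes, a difference of -1.91 ± 0.12 against 2.85 for the former. The 2 clusters were apart by -4.76 ± 0.18 in their exosome minus cell difference. The nearest identifiers of Zfp369/Zfp110 lay mostly on chromosome 13, that of Zfp369. Those of Zfp110/Zfp369 lay mostly on chromosome 7, that of Zfp110. The pair is thus not a repeat reading at 1 place, and which gene gave each signal was not tested.

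Psme2/Psme2b, genes of a proteasome activator subunit induced by interferon-gamma, was listed by 2 clusters that both fell. The brighter one read 8.11, 7.79, 8.22 and 7.85 in cells and 7.28, 6.86, 6.97 and 7.13 in exosomes, a difference of -0.93 ± 0.13. The dimmer one read 7.02, 6.06, 6.63 and 6.07 in cells and 3.44, 2.33, 2.41 and 1.96 in exosomes, under the threshold on every exosome array (limma adjusted p = 1.11e-05). Its cell mean of 6.45 is itself under the exosome threshold, so no fold is given and the sizes of the 2 falls are not compared. Of the 2 clusters of Gstp2/Gstp1, with cell means of 13.15 and 7.41, the brighter differed by -1.84. The dimmer was under the threshold on every exosome array and at least 1.88-fold lower (limma adjusted p = 0.000659), so these sizes are not compared either. The nearest identifiers of 1 Psme2/Psme2b cluster lay mostly on chromosome 14, that of Psme2, and of the other on 11, that of Psme2b. For Gstp2/Gstp1 they lay on chromosome 19, that of both genes, for 1 cluster and on chromosome 1 for the other.

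Of the symbols in several-symbol clusters, 235 also had a single-symbol cluster, which gave 266 pairs. In 72 pairs both clusters lay above background in cells. Of these, 52 had both clusters lower in exosomes, 2 had both higher and 5 had opposite calls, and in 43 the difference between the clusters passed (limma on per-array differences, adjusted over the 266 pairs). Since the pairs were taken by their cell level, the count of falls is no support for a fall. In 21 of them both clusters also lay above background in exosomes, of which 13 passed the test of the difference. Across the 72 pairs the differences of the 2 clusters had a Pearson r of 0.20, a description over pairs that share arrays and in part clusters.

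In all 5 pairs with opposite calls the shared symbol was listed later, as it was in 68 of the 72. The differences between their clusters are given as sizes with no test, since these pairs were taken for their opposite calls. Phb/Zfp652, adjacent genes for the mitochondrial scaffold protein prohibitin and a zinc finger repressor, read 10.33, 10.29, 10.24 and 10.34 in cells and 7.59, 7.88, 7.55 and 7.93 in exosomes. The Zfp652 cluster itself read 8.46, 8.56, 8.39 and 8.43 in cells and 10.65, 10.60, 10.66 and 10.66 in exosomes. Their differences of -2.56 and 2.19 were apart by -4.75 ± 0.14.

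For Mid2/Ago2, a microtubule-associated ubiquitin ligase gene on chromosome X and the gene of the small RNA-guided nuclease Argonaute 2 on chromosome 15, cells read 8.59, 8.31, 8.48 and 8.44 and exosomes 6.19, 6.26, 6.24 and 6.34. The Ago2 cluster read 10.94, 10.69, 10.82 and 10.67 in cells and 12.36, 12.48, 12.41 and 12.41 in exosomes. The first was under the threshold on every exosome array and at least 3.90-fold lower (limma adjusted p = 7.31e-08). The second was higher on every exosome array, by 1.63 ± 0.08 (limma adjusted p = 3.12e-07).

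Pam/Btf3, a peptide-amidating enzyme gene and a gene of the nascent polypeptide-associated complex, differed by -1.83 and the Btf3 cluster by 1.18, apart by -3.01 ± 0.17. Atg3/D930048N14Rik, with an enzyme of autophagosome formation first, differed by -2.85 with 1 of 4 exosome arrays above background, and the D930048N14Rik cluster by 0.42 with 3 of 4, apart by -3.26 ± 0.21. In the opposite sense, Ei24/Nop56 rose by 1.72, while the Nop56 cluster read 11.29, 11.37, 11.42 and 11.46 in cells and 9.73, 9.99, 10.09 and 9.97 in exosomes and differed by -1.44 (apart by 3.16 ± 0.13).

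Other shared symbols moved in 1 direction to different extents. The cluster of Cflar alone rose by 2.78 ± 0.12, and Cflar/Gm9845 by 1.81, apart by -0.96 ± 0.15 (limma adjusted p = 0.000486). Lrrc58/Actb, which lists beta-actin second, differed by -0.42 ± 0.08 and the Actb cluster by -1.57 ± 0.09, apart by 1.15 ± 0.13 (limma adjusted p = 6.47e-05). The former turned to 0.64 and 0.89 under quantile and cyclic loess normalization. Tubb3/Mc1r, a neuronal beta tubulin and the melanocortin receptor of pigment cells, differed by -2.64 ± 0.18, and the Mc1r cluster by -0.50 ± 0.08 (apart by -2.14 ± 0.19, limma adjusted p = 1.53e-05). Tubb3/Mc1r was above background on 1 of 4 exosome arrays, so the size of its fall and of this gap rests partly on values under the threshold.

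**Figure D4:**
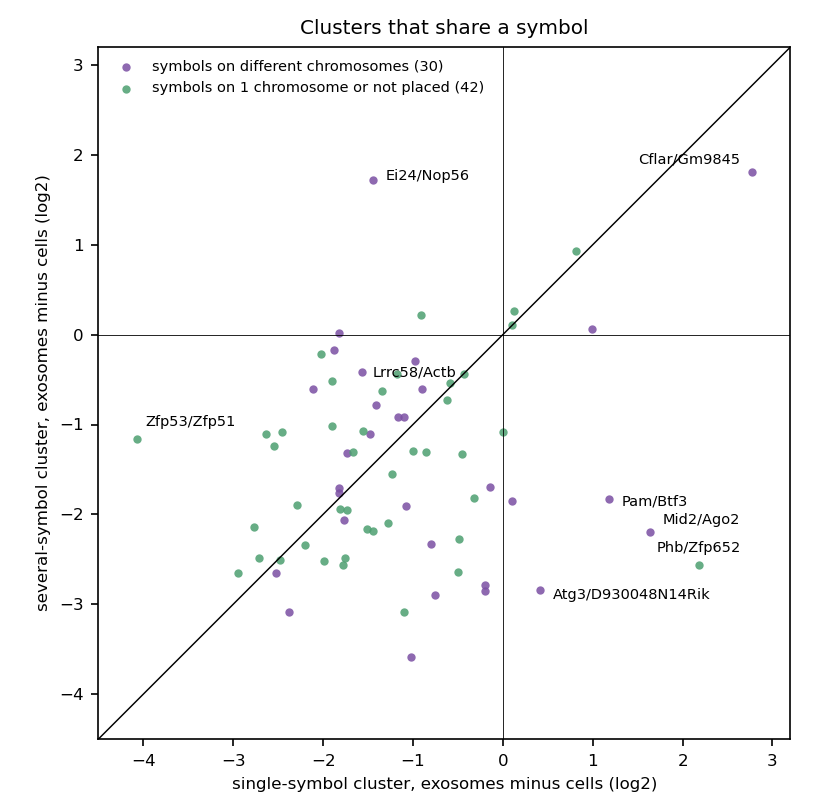
Exosome minus cell difference (log2) of 72 several-symbol clusters (y) and of the single-symbol cluster that shares a symbol with each (x), for pairs above background in cells. The line marks equal differences; Phb/Zfp652, Mid2/Ago2, Pam/Btf3, Atg3/D930048N14Rik and Ei24/Nop56 were called in opposite directions, and the 30 pairs with genes on different chromosomes are coloured apart.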

How the data were processed

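Gene expression was measured with 1 Affymetrix mouse exon array per sample in 4 cell and 4 exosome samples of B16F0. Per the labels' protocols, RNA was purified on columns and reverse transcribed with a kit for whole transcripts, and every array received the same amount of labelled cDNA. The authors deposited log2 intensity values, 1 per transcript cluster; Affymetrix Expression Console, RMA and the build mm8 are named in the submitters' processing notes, without versions. RMA brings the arrays to a common distribution, but the 75th percentile of the deposited values was 8.53 ± 0.06 (SD, n = 4) in cells and 7.13 ± 0.06 in exosomes, so other scalings were tried. Depth has no counterpart on arrays; their number limits the precision.

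From these values limma 3.58.1 (R 4.3.3; lmFit and eBayes, two-sided, no filter, no covariate) was fitted to all 23332 clusters, and p-values were adjusted by Benjamini-Hochberg over all of them, with calls at 0.05. Clusters were named if among the 10 largest non-overlapping rises or falls above background, the 6 brightest of a group, up to 3 called members of a family list in the direction of its median and 1 against it, or if they listed one of a few set genes. Where a group was under background on all 4 arrays, the fold is a lower bound, computed with the threshold in place of the dim value. Pairs of clusters that share symbols were tested with limma on their per-array differences; these tests, the 3-letter name stem and the look at neighbouring identifiers were chosen after the values were seen, and the name patterns for Dct and for ribosomal proteins were corrected then. Members, lists and tests were chosen with earlier results of these data known. Same-numbered cell and exosome arrays did not deviate together (correlations of -0.05 to 0.001). This cannot tell whether a shared number marks a shared culture, which the labels do not say, and the main fit used no pairing. The statistics were tested on simulated data. Alternatives were quantile, cyclic loess and background-centred scaling, a filter on dim clusters, other thresholds, variance priors and array weights, the replicate block, and leaving out each array. Lists for microRNAs, protocadherins, major urinary proteins and pigment cell genes had no several-symbol cluster. Those for glycolysis, tetraspanins and vesicle machinery, and carboxylesterases had 1, 1 and 2, of which Mdh1/Pgam1 and Tm7sf2/Vps51 fell and Ces3b/Ces3a rose. The remaining lists, of 3 to 11 clusters, had 3 rises and 3 falls of 8 (tubulins and actins), 1 and 3 of 5 (Ras superfamily), 1 and 3 of 6 (heat shock proteins and cyclophilins), 1 and 2 of 3 (high mobility group), 1 and 5 of 11 (solute carriers), 1 and 0 of 6 (immunoglobulin and T cell receptor) and 0 and 1 of 7 (defensins). Of all clusters 16.4% rose and 42.9% fell.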

Additional observations from a re-analysis of the deposited data

Results flagged for a closer look

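In 13 of the 188 groups of 4 arrays behind the named clusters, 1 array lay so far from the other 3 that its gap exceeded Dixon's 95% critical value of 0.829 times the range; chance flags about 1 in 20 groups. Of these 13 groups, 5 were of cells and 8 of exosomes. Exosome replicate 1 read 8.02 for Vmn2r42/Vmn2r30/Vmn2r48/Vmn2r32/Vmn2r49 (nearest 7.70), 12.64 for Ube2v1/Tmem189 (nearest 12.83) and 8.03 for Cox7a2l/Gm6969 (nearest 8.26). Exosome replicate 2 read 5.18 for Rsl1/Zfp455/Zfp429/Zfp456 (nearest 2.91), 3.26 for Cd302/Rpl10a (nearest 3.67) and 6.53 for H2-K1/H2-K2/H2-D1 (nearest 6.70). Exosome replicate 3 read 4.28 for the Serpina1d-first serpin cluster (nearest 5.03), and exosome replicate 4 read 5.84 for Qrfprl/Dnajc2 (nearest 6.18). Cell replicate 1 read 9.35 for Sh3bgrl/Gm6377 (nearest 9.42) and 10.05 for Herpud2/Rpl41 (nearest 9.90). Cell replicate 3 read 5.38 for Qrfprl/Dnajc2 (nearest 5.24), 9.77 for Snrpa/Gm5145 (nearest 9.44) and 3.89 for Rasl2-9/Actg1 (nearest 2.98). Except for Rsl1/Zfp455/Zfp429/Zfp456, each gap was under 1 log2 unit.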

How the results depend on the processing

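Of the 94 named clusters, 39 were called higher, 53 lower and 2 not called; 21 had another sign under at least 1 scaling, of which 20 had a call on at least 1 side, and 26 lost their call under at least 1 setting. The count of members called higher was 42 with arrays centred on receptor clusters, 36 with only clusters above background in a group (431 members tested), 101 at an adjusted p below 0.01 and 52 with at least 2-fold. After quantile normalization 265 were higher and 253 lower, and after cyclic loess 263 and 258, so that rises outnumbered falls; 677 were lower with centring. Members above background in exosomes numbered 124 with the 99th percentile. The median difference turned to 0.092 (quantile) and 0.064 (cyclic loess), and was -0.67 with centring and -1.21 over members above background in both groups. Leaving out 1 array at a time gave 147 to 171 rises, 378 to 392 falls, 424 to 432 members above background in cells and 236 to 243 in exosomes. With the replicate block 161 rose and 384 fell, of which 149 and 381 were also called without it. The labels do not say whether same-numbered arrays share a culture. The cause of these shifts was not tested.

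Values that reversed under quantile and cyclic loess normalization were 0.28 and 0.38 for Ube2v1/Tmem189, 0.46 and 0.65 for Rps14/EG545121, 0.53 and 0.59 for Atg16l1/Scarna6, 0.53 and 0.60 for Wdfy2/Defb43/Defb47, 0.11 and 0.37 for Traf7/Rab26, 0.031 and 0.33 for Ran/Rasl2-9, 0.34 and 0.39 for Dnajc8/Ptafr, and 0.64 and 0.89 for Lrrc58/Actb. Under cyclic loess alone they were 0.062 for Cop1/Scarna3a/Gm6206 and 0.17 for Gclm/Ppia. With arrays centred on receptor clusters they were -0.12 for Rps19/Rps19-ps2, -0.10 for Ugt2b36/Ugt2b37/Ugt2b38/Ugt2b5, -0.00014 for Cyp2c65/Cyp2c66, -0.21 for Col19a1/Tubb4b, -0.33 for Il31ra/Tuba1b/Tuba1c/Gm5620, -0.13 for Igkv3-2/Igkv3-4/Igkv6-25/Igkc, -0.36 for Lrp1b/Ran, -0.18 for Snrpa/Gm5145, -0.10 for Cox7a2l/Gm6969 and -0.36 for Esr2/Hmgn1; Rasl2-9/Actg1, not called either way, went from 0.52 to -0.076. Signal over background limits the rest: only 231 members were above background on all exosome arrays.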
